A study of Mus musculus with 38 samples.

Results

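Endothelial adhesion molecules and inflammatory cytokines were followed across the mouse left ventricle as a fixed list of 10 genes: Vcam1, Icam1, Icam2, Sele, Selp, Ccl2, Il1b, Il6, Tnf and Nlrp3. The list was given by gene name, not by measured values, though earlier results of these data were known. All 10 were found among the 29564 genes of the expression tables. Polyadenylated RNA was sequenced from the left ventricle of 38 mice, with 1 library per mouse. All mice were WT, on the strain that the labels spell C57BL6. The non_failing mice (n = 8) were controls given vehicle. HFpEF, heart failure with preserved ejection fraction, was modelled with a high-fat diet and L-NAME, an inhibitor of nitric oxide synthases. The HFpEF mice received vehicle (HFpEF+Veh, n = 8), TYA-018, which inhibits the deacetylase HDAC6 (group HFpEF+TYA-018, n = 11), or empagliflozin, an inhibitor of the glucose transporter SGLT2 (HFpEF+SGLT2i, n = 11), so 3 of the 4 groups shared the diet and L-NAME. The labels name the sex as female, whereas the study's methods name male mice. Y-linked genes had counts in all 38 libraries (at least 126), so the labelled sex was not used. Ages were not given per sample. The question put to these genes was whether they differed between non_failing and HFpEF hearts and between treatments.

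These genes belong to one sequence of events at the vessel wall. P-selectin (Selp) and E-selectin (Sele) let leukocytes roll, and VCAM-1, ICAM-1 and ICAM-2 bind leukocyte integrins and hold the cells before they cross. The chemokine CCL2 draws monocytes through CCR2, TNF and IL-1 beta switch endothelial cells to the adhesive state through NF-kappa-B, IL-6 carries the signal further, and NLRP3 is the sensor of the inflammasome that leads to mature IL-1 beta.

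The libraries held between 21451633 and 59280414 estimated counts. Cardiomyocyte markers were abundant in every library, with a sum over 8 genes of 15428 to 29473 TPM (transcripts per 1000000, a level corrected for transcript length), led by the ventricular light chain Myl2. One vehicle library, HFpEF+Veh V2523, carried liver transcripts: albumin (Alb) reached 1141 counts per 1000000 (CPM) there and at most 21.7 CPM in the other 7 vehicle libraries, while the non_failing libraries held 14.1 to 237 CPM. Values that rest on the vehicle group are therefore given with and without V2523 where the difference matters. A second library, HFpEF+SGLT2i V2571, had the highest level in its group for 6 of the 10 genes (Icam1, Icam2, Selp, Il1b, Il6 and Nlrp3), the highest monocyte and neutrophil marker sum of all libraries (245 TPM, against a group median of 21.8) and the lowest cardiomyocyte marker sum (15428 TPM). In RNA from whole tissue, fewer cells of a type and less RNA per cell cannot be told apart.

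The letters upstream of the genes are shown for the members whose levels differed between groups, Tnf and Nlrp3, and for Sele, which holds both motifs searched. RefSeq promoters (GRCm38.p6) were matched by symbol for 7 of the 10 genes (Icam1, Sele, Selp, Il1b, Il6, Tnf and Nlrp3, the last with 2 start sites). Each line is the 250 bases before the annotated start, 5′ to 3′ on the gene's own strand, and capitals mark a kappa-B-like motif (GGNNNTTCC, searched on both strands) or an AP-1 motif (TGANTCA, which reads the same on both strands). The lines are Sele on the plus strand at chr1:164047984-164048233, Tnf on the minus strand at chr17:35202008-35202257, and the 2 Nlrp3 starts on the plus strand at chr11:59542436-59542685 and chr11:59541319-59541568.
Sele: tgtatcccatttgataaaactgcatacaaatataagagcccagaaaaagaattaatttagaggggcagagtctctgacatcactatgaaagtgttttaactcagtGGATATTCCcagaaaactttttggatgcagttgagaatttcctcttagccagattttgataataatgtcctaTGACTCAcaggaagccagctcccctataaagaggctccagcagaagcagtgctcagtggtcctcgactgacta
Tnf: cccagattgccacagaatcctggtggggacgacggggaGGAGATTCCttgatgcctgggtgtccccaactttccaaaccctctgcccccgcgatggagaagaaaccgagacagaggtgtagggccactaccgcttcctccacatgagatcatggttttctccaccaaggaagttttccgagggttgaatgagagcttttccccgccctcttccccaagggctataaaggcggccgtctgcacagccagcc
Nlrp3 start 1: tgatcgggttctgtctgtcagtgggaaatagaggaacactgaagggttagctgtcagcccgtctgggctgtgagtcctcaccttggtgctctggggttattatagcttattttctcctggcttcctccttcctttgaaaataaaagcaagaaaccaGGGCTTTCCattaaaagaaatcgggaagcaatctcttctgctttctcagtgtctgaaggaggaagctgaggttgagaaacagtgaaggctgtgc
Nlrp3 start 2: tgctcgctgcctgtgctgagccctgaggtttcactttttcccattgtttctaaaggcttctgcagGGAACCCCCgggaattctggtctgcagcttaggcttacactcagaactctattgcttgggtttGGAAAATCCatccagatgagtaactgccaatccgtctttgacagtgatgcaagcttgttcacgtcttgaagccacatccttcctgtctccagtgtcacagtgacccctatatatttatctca
In Sele the kappa-B-like match lay 145 to 137 bases before the start and the AP-1 match 73 to 67 bases before it. In Tnf the kappa-B-like match lay 212 to 204 bases before the start. The kappa-B-like letters were present in 7 of the 8 member windows and in 15.7% of all 32851 promoter windows of the same length. Of the members with an entry, Il1b alone lacked them within 250 bases. The AP-1 letters were present in 3 of the 8 windows (Sele, Selp and Il6) and in 6.75% of all windows. No match of one motif overlapped a match of the other. A match describes these letters and is not a measured binding site.

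The 10 genes spanned a wide range of abundance. By mean TPM over all 38 libraries the order was Icam2 (20.7 ± 4.91, SD), Ccl2 (8.61 ± 4.59), Icam1 (6.20 ± 1.58), Vcam1 (5.57 ± 1.18), Il1b (1.52 ± 1.69), Tnf (0.589 ± 0.340), Selp (0.257 ± 0.193), Sele (0.207 ± 0.109), Nlrp3 (0.159 ± 0.0954) and Il6 (0.0885 ± 0.202). The Ig-family adhesion molecules and Ccl2 thus sat above the cytokines, and both selectins, Nlrp3 and Il6 were scarce. Sele rested on 6 to 69 counts per library, Selp on 6 to 68, Nlrp3 on 3 to 38 and Il6 on 0 to 12. A count of 0 allows up to 3 counts, which for Il6 corresponded to between 0.0774 and 0.208 TPM depending on the library. Such limits cover counting error only.

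**Figure D1:**
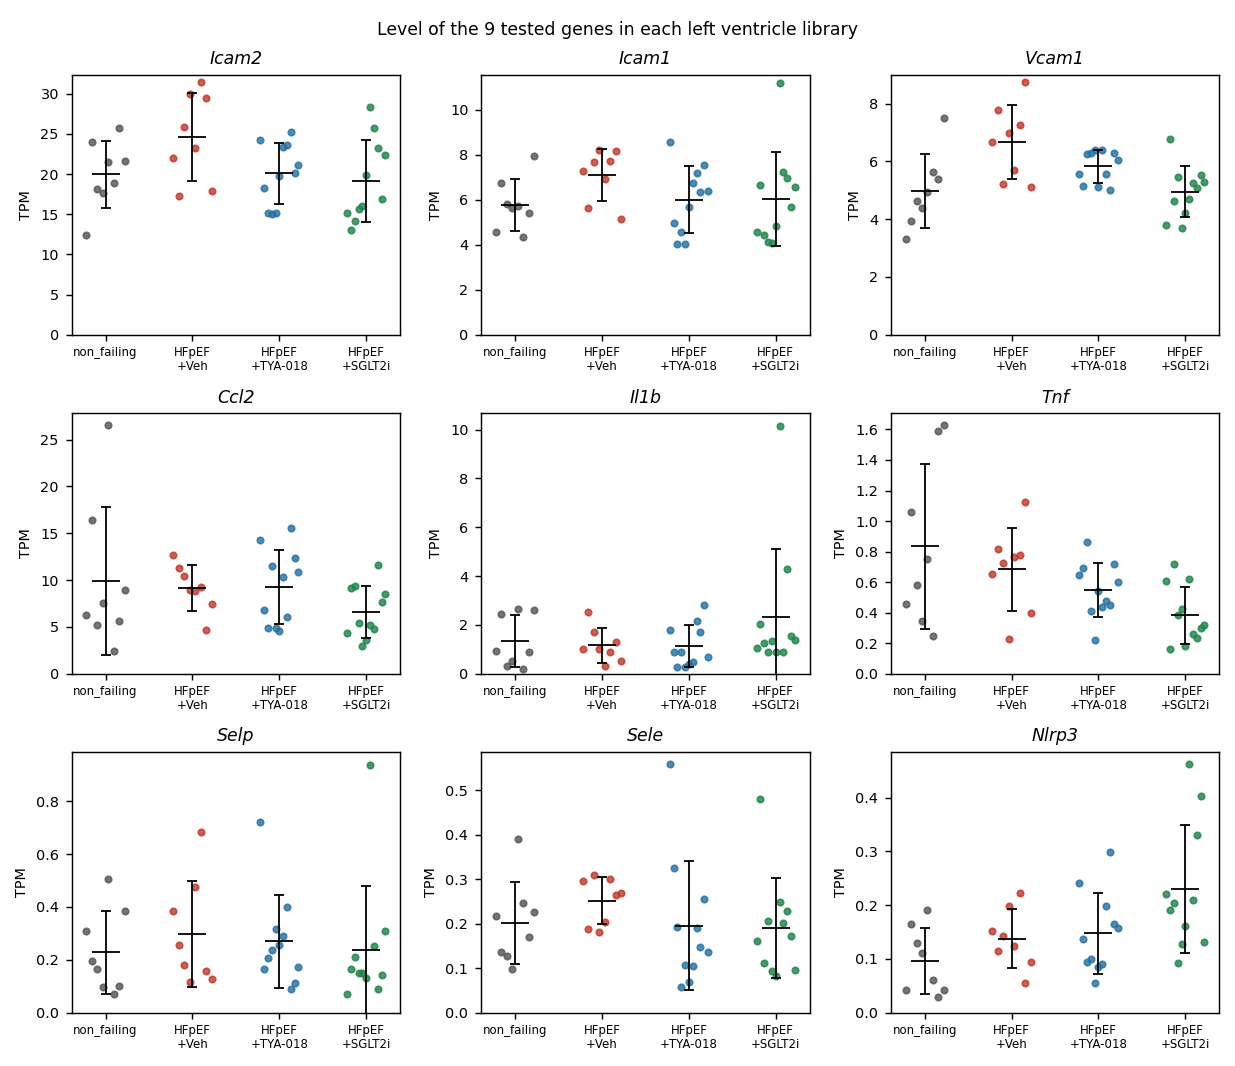
Levels in TPM of the 9 genes abundant enough to be tested (1 panel each, own axis from 0) in the 4 groups. Each point is 1 library, the long bar the group mean and the whiskers 1 SD (cut at 0 where the SD exceeds the mean); every panel shows overlapping groups, with HFpEF+SGLT2i V2571 standing at 10.1 TPM for Il1b.

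Across the 6 comparisons of the 4 groups, 9 of the 10 genes had enough counts for edgeR's quasi-likelihood test (Il6 did not), and calls were made at a Benjamini-Hochberg adjusted p under 0.05 over all 13765 genes tested. The comparisons share groups, so their values are given side by side and not as independent evidence. Between HFpEF+Veh and non_failing, 0 of the 9 genes were called, where 3.15% of all genes were. Between HFpEF+TYA-018 and HFpEF+Veh the count was again 0, against 1.93% of all genes. For HFpEF+SGLT2i against HFpEF+Veh it was 0, against 0.85%, and that share rested on V2523, with 117 genes called over the whole table and 2 without that library. No gene at all was called between HFpEF+TYA-018 and HFpEF+SGLT2i (0%), and of all genes 1821 had an unadjusted p under 0.05, while DESeq2 called 185 of 10562 genes and none of the 4 members to which it gave an adjusted p. For HFpEF+TYA-018 against non_failing the count was 0, against 7.39%. For HFpEF+SGLT2i against non_failing it was 2, against 6.45%: Nlrp3 was higher, as were 3.46% of all genes, and Tnf was lower, as were 2.99%. In the other 5 comparisons DESeq2 gave an adjusted p to all 9 and called as many of them as edgeR. At an unadjusted p under 0.05 the counts, in the same order, were 1 (15.9% of all genes), 0 (17.5%), 4 (10%), 2 (13.2%), 0 (22%) and 3 (19.6%). The group ranges of every gene overlapped in every comparison.

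The median fitted log2 fold change over the 9 genes was 0.18 in HFpEF+Veh against non_failing, where it was 0.01 over all genes. It was -0.09 in HFpEF+TYA-018 against HFpEF+Veh, beside -0.01 over all genes. In HFpEF+SGLT2i against HFpEF+Veh it was -0.28, beside 0.01, and 7 of the 9 genes had negative values, the exceptions being Il1b and Nlrp3. In HFpEF+TYA-018 against HFpEF+SGLT2i it was 0.15, beside -0.01. With single libraries left out, these medians kept their sign but moved in size. They ran, in that order, from 0.11 to 0.27, from -0.14 to -0.03, from -0.35 to -0.21 and from 0.08 to 0.30. Against non_failing the medians were 0.06 for HFpEF+TYA-018 and -0.01 for HFpEF+SGLT2i, beside 0.01 over all genes in both. These medians lay between -0.02 and 0.21 for HFpEF+TYA-018 (without V2501 and without V2507) and between -0.16 and 0.09 for HFpEF+SGLT2i (without V2571 and without V2510) when single libraries were left out, so their sign was not stable.

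**Figure D2:**
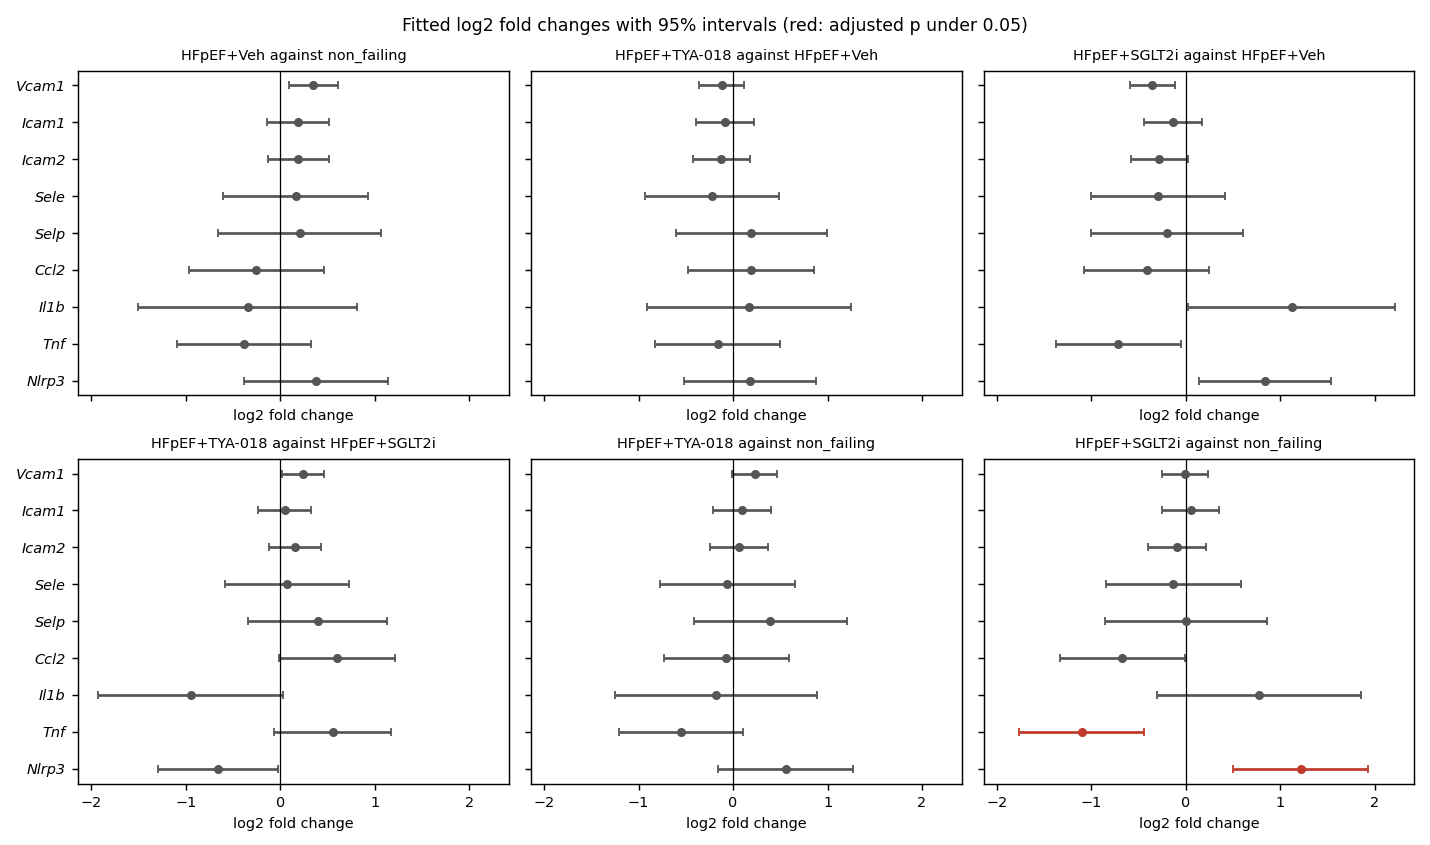
Fitted log2 fold changes (horizontal axis) of the 9 tested genes (rows) in the 6 comparisons (panels), as points with 95% intervals from edgeR. Red marks an adjusted p under 0.05, reached by Nlrp3 (1.22) and Tnf (-1.10) in HFpEF+SGLT2i against non_failing.

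Vcam1 (chr3:116109949-116129688, minus strand, GRCm38) encodes the endothelial ligand of the integrin alpha-4 beta-1. Its level ran from 3.31 to 7.51 TPM (median 4.78) in non_failing and from 5.10 to 8.73 TPM (median 6.82) in HFpEF+Veh. It ran from 4.99 to 6.40 TPM (median 6.05) in HFpEF+TYA-018 and from 3.70 to 6.77 TPM (median 5.08) in HFpEF+SGLT2i. All 8 vehicle libraries lay above the non_failing mean, 7 of the 8 non_failing libraries lay below the vehicle median, and the non_failing libraries V2508, V2509 and V2510, the last the highest of its group, lay within the vehicle range. The log2 fold change of HFpEF+Veh over non_failing was 0.35 (SE 0.13), with p = 0.00954 and adjusted p = 0.144 in edgeR. Without V2510 the value was 0.44 and passed, with an edgeR adjusted p of 0.0346. By mean TPM the order was HFpEF+Veh (6.68 ± 1.28), HFpEF+TYA-018 (5.82 ± 0.558), non_failing (4.97 ± 1.28) and HFpEF+SGLT2i (4.95 ± 0.880), and no neighbours in it differed (edgeR adjusted p = 0.626, 0.257 and 0.980). HFpEF+SGLT2i against HFpEF+Veh, the ends of that order, gave a log2 fold change of -0.36 (SE 0.12, edgeR p = 0.00432, adjusted p = 0.183), with 6 of 11 treated libraries below every vehicle library. HFpEF+TYA-018 against HFpEF+Veh gave -0.12 with a 95% interval of -0.36 to 0.12, although all 11 treated libraries lay below the vehicle mean. Leaving out single libraries moved that value to between -0.16 (without V2532) and -0.05 (without V2530). Without V2523 the vehicle mean was 6.52 TPM and the values were 0.33, -0.34 and -0.10 against non_failing, for SGLT2i and for TYA-018.

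Icam1 (chr9:21015985-21028817, plus strand) encodes a ligand of the leukocyte integrin LFA-1 and is a classical target of TNF signalling. It ran from 4.35 to 7.94 TPM (median 5.67) in non_failing and from 5.13 to 8.21 TPM (median 7.48) in HFpEF+Veh. It ran from 4.04 to 8.58 TPM (median 6.33) in HFpEF+TYA-018 and from 4.07 to 11.2 TPM (median 5.68) in HFpEF+SGLT2i. The vehicle group had the highest mean, 7.10 ± 1.15 TPM, and the other 3 means were 6.03 (HFpEF+SGLT2i), 6.01 (HFpEF+TYA-018) and 5.77 (non_failing), none of them separated from the next. The log2 fold change of HFpEF+Veh over non_failing was 0.18 (95% interval -0.14 to 0.51, edgeR adjusted p = 0.620). HFpEF+SGLT2i against HFpEF+Veh gave -0.13, and -0.26 without V2571, the library at 11.2 TPM (edgeR p = 0.0608, adjusted p = 0.394).

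Icam2 (chr11:106377656-106388075, minus strand), which resting endothelium makes constitutively, was the most abundant of the 10. It ran from 12.4 to 25.8 TPM (median 20.2) in non_failing and from 17.3 to 31.4 TPM (median 24.5) in HFpEF+Veh. It ran from 15.1 to 25.2 TPM (median 20.2) in HFpEF+TYA-018 and from 13.1 to 28.3 TPM (median 16.8) in HFpEF+SGLT2i. The groups overlapped over most of their ranges, and 4 of the 8 vehicle libraries stood above every non_failing library. The mean order was HFpEF+Veh (24.6 ± 5.44 TPM), HFpEF+TYA-018 (20.1 ± 3.81), non_failing (20.0 ± 4.18) and HFpEF+SGLT2i (19.1 ± 5.08), with no neighbours apart in edgeR. The lowest unadjusted p was that of HFpEF+SGLT2i against HFpEF+Veh, a log2 fold change of -0.28 (95% interval -0.58 to 0.02, edgeR p = 0.0661, adjusted p = 0.531), which was -0.35 without V2571 (edgeR p = 0.0225, adjusted p = 0.276). V2523 was the lowest vehicle library for Icam2, and without it the vehicle mean was 25.7 TPM. The SGLT2i value against HFpEF+Veh was then -0.35 (edgeR p = 0.0256, adjusted p = 0.389).

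The selectins were near the lower end of what these libraries measured. Sele (chr1:164048234-164057677, plus strand), made by activated endothelium, ran from 0.0981 to 0.391 TPM (median 0.194) in non_failing and from 0.181 to 0.309 TPM (median 0.266) in HFpEF+Veh. It ran from 0.0582 to 0.560 TPM (median 0.148) in HFpEF+TYA-018 and from 0.0817 to 0.481 TPM (median 0.172) in HFpEF+SGLT2i. The 8 vehicle libraries formed the narrowest group and lay inside the non_failing range, and 6 of 11 libraries of either treatment lay below all of them. The log2 fold changes against HFpEF+Veh were -0.22 for TYA-018 (95% interval -0.93 to 0.49) and -0.29 for SGLT2i (95% interval -1.0 to 0.42). Single libraries moved them, to -0.50 without V2543 and -0.13 without V2548 for TYA-018, and to -0.55 without V2562 for SGLT2i, the lowest edgeR p on leaving out any 1 library being 0.140 and 0.115. Selp (chr1:164115264-164150026, plus strand), stored as protein in endothelial cells and platelets, ran from 0.0697 to 0.507 TPM (median 0.180) in non_failing and from 0.117 to 0.684 TPM (median 0.218) in HFpEF+Veh. It ran from 0.0874 to 0.721 TPM (median 0.237) in HFpEF+TYA-018 and from 0.0719 to 0.939 TPM (median 0.151) in HFpEF+SGLT2i. One library set the top of the Selp range under each treatment, HFpEF+TYA-018 V2543 and HFpEF+SGLT2i V2571. HFpEF+TYA-018 over HFpEF+Veh gave 0.19, and -0.12 without V2543 (edgeR p = 0.740, adjusted p = 0.898). Without V2571 the log2 fold change of HFpEF+SGLT2i over HFpEF+Veh moved from -0.20 to -0.56 (edgeR p = 0.130, adjusted p = 0.507). With that library included the 95% interval was -1.0 to 0.60, so differences of that size in either direction were within the error.

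Ccl2 (chr11:82035571-82037453, plus strand) was the most abundant soluble signal of the list. It ran from 2.38 to 26.6 TPM (median 6.92) in non_failing and from 4.62 to 12.6 TPM (median 9.14) in HFpEF+Veh. It ran from 4.56 to 15.5 TPM (median 10.3) in HFpEF+TYA-018 and from 2.99 to 11.6 TPM (median 5.42) in HFpEF+SGLT2i. The widest spread was among the controls, where V2507 stood at 26.6 TPM and V2508 at 2.38 TPM, and all 8 vehicle libraries lay inside that range. HFpEF+SGLT2i had the lowest mean, 6.61 ± 2.79 TPM, and 10 of its 11 libraries lay below the non_failing mean of 9.88 ± 7.90 TPM. Its log2 fold change over non_failing was -0.67 (95% interval -1.33 to -0.01, edgeR p = 0.0469, adjusted p = 0.246), and against HFpEF+Veh it was -0.41 (adjusted p = 0.715). Without V2507 the value over non_failing was -0.15 (edgeR p = 0.603, adjusted p = 0.843), the non_failing mean was 7.50 ± 4.45 TPM and 6 of the 11 SGLT2i libraries lay below it. HFpEF+TYA-018 (9.28 ± 3.98 TPM) and HFpEF+Veh (9.19 ± 2.44 TPM) were neighbours, with a log2 fold change of 0.19 (95% interval -0.48 to 0.85), and TYA-018 over SGLT2i gave 0.60 (edgeR p = 0.0547, adjusted p = 0.391).

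Il1b (chr2:129364570-129371139, minus strand), made mainly by monocytes, macrophages and neutrophils, varied more within groups than between them. It ran from 0.194 to 2.66 TPM (median 0.918) in non_failing and from 0.297 to 2.53 TPM (median 1.02) in HFpEF+Veh. It ran from 0.273 to 2.80 TPM (median 0.872) in HFpEF+TYA-018 and from 0.881 to 10.1 TPM (median 1.35) in HFpEF+SGLT2i. The vehicle maximum was V2523, without which that group ran from 0.297 to 1.71 TPM, and V2571 (10.1 TPM) and V2573 (4.28 TPM) of HFpEF+SGLT2i stood above every other library. The log2 fold change of HFpEF+SGLT2i over HFpEF+Veh was 1.12 (95% interval 0.03 to 2.21, edgeR p = 0.0451, adjusted p = 0.482). Without V2571 it was 0.54 (edgeR p = 0.272, adjusted p = 0.654), and without V2523, the highest vehicle library for Il1b, it was 1.37 (adjusted p = 0.368). TYA-018 over SGLT2i gave -0.95 (adjusted p = 0.397), and -0.37 without V2571. V2571 carried monocyte and neutrophil markers at 245 TPM, and the part of those cells in its Il1b level was not tested.

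Tnf (chr17:35199381-35202007, minus strand) was low throughout. It ran from 0.250 to 1.63 TPM (median 0.667) in non_failing and from 0.224 to 1.12 TPM (median 0.744) in HFpEF+Veh. It ran from 0.221 to 0.861 TPM (median 0.542) in HFpEF+TYA-018 and from 0.159 to 0.715 TPM (median 0.317) in HFpEF+SGLT2i. The means descended from non_failing (0.834 ± 0.541 TPM) through HFpEF+Veh (0.685 ± 0.273) and HFpEF+TYA-018 (0.550 ± 0.177) to HFpEF+SGLT2i (0.382 ± 0.188), and no neighbours in that order differed (edgeR adjusted p = 0.634, 0.838 and 0.448). The ends did: on the log2 scale Tnf was lower in HFpEF+SGLT2i than in non_failing, at -1.10 with an SE of 0.33 (adjusted p = 0.0338 in edgeR), or 0.466 of the control level with a 95% interval of 0.295 to 0.737. All 11 treated libraries lay below the non_failing mean and 3 lay below every non_failing library. That call was lost on leaving out any 1 of 10 libraries (V2502, V2507, V2509, V2510, V2562, V2566, V2572, V2573, V2574 or V2575), the adjusted p then reaching 0.111 without V2509. The call was also lost in limma on log2(TPM + 1), and with HFpEF+SGLT2i and non_failing fitted alone. The controls V2509 (1.59 TPM) and V2510 (1.63 TPM) stood above every other library of the study. Against HFpEF+Veh the SGLT2i value was -0.71 (95% interval -1.38 to -0.05, edgeR p = 0.0364, adjusted p = 0.445) and the TYA-018 value -0.16 (adjusted p = 0.838). Without V2523 the SGLT2i value was -0.68 (edgeR p = 0.0566, adjusted p = 0.487).

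Nlrp3 (chr11:59541568-59566956, plus strand) was scarce but present in all 38 libraries. It ran from 0.0290 to 0.191 TPM (median 0.0856) in non_failing and from 0.0552 to 0.223 TPM (median 0.133) in HFpEF+Veh. It ran from 0.0552 to 0.299 TPM (median 0.137) in HFpEF+TYA-018 and from 0.0921 to 0.463 TPM (median 0.203) in HFpEF+SGLT2i. The means ascended in that order, from 0.0963 ± 0.0618 TPM through 0.138 ± 0.0542 and 0.147 ± 0.0748 to 0.23 ± 0.119 TPM, with no neighbours apart (edgeR adjusted p = 0.675, 0.828 and 0.354). The ends differed: on the log2 scale Nlrp3 was higher in HFpEF+SGLT2i than in non_failing, at 1.22 with an SE of 0.35 (adjusted p = 0.0303 in edgeR), a fold of 2.32 with a 95% interval of 1.41 to 3.82. Of the 11 treated libraries 10 lay above the control mean and 6 above every control. The lowest control rested on 3 counts, and the call was lost on leaving out any 1 of 7 libraries (V2501, V2508, V2509, V2510, V2571, V2573 or V2574). The adjusted p was then at most 0.0695, without V2509, and it was 0.0616 without V2571, where the log2 fold change was 1.07. The call was also lost with HFpEF+SGLT2i and non_failing fitted alone. Against HFpEF+Veh the SGLT2i value was 0.84 (edgeR p = 0.0202, adjusted p = 0.355), and 0.69 without V2571. Over HFpEF+Veh the TYA-018 value was 0.18 (95% interval -0.52 to 0.88).

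Il6 (chr5:30013114-30019981, plus strand) was at the detection limit. Counts were found in 8 of 38 libraries, 62 in all, and the highest was 12. They occurred in 1 of 8 non_failing, 3 of 8 HFpEF+Veh, 2 of 11 HFpEF+TYA-018 and 2 of 11 HFpEF+SGLT2i libraries. The non_failing library was V2510 (0.389 TPM), and the vehicle libraries were V2530, V2528 and V2521 (0.360, 0.545 and 0.615 TPM). Under TYA-018 they were V2570 and V2548 (0.285 and 0.301 TPM), and under SGLT2i V2564 and V2571 (0.0446 and 0.822 TPM). The median was 0 in every group, V2523 had no Il6 count, and no difference between groups was detectable at this depth. With no filter on low counts, the edgeR adjusted p for Il6 lay between 0.534 and 1.0 over the 6 comparisons.

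**Figure D3:**
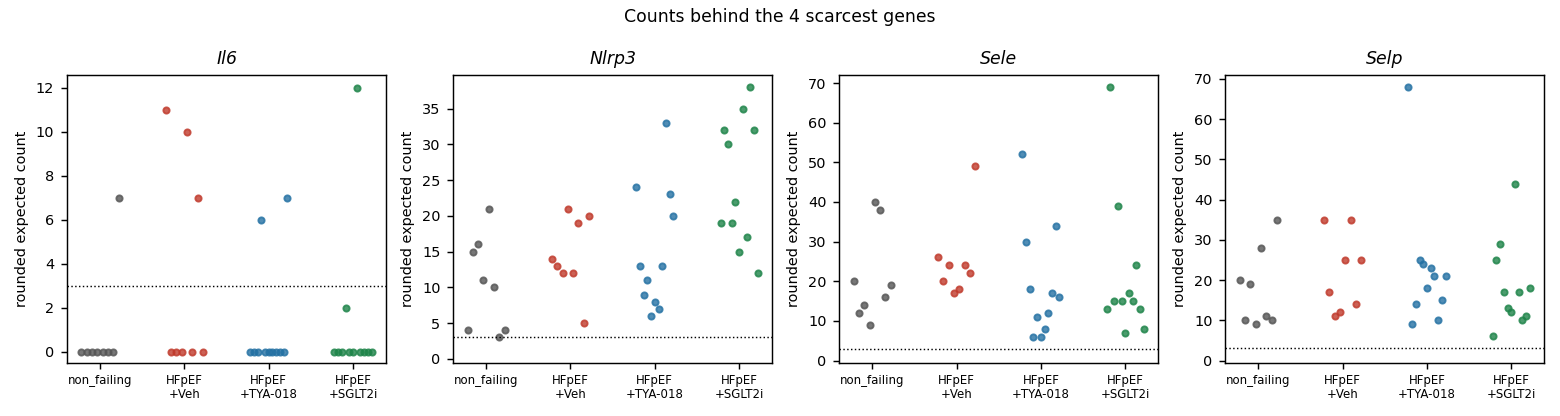
Rounded estimated counts (vertical axis) of Il6, Nlrp3, Sele and Selp in each library, by group, with the dotted line at 3 counts. Il6 is at 0 in 30 libraries, whereas Nlrp3, at 3 to 38 counts, is at or above the line in every library.

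Of 89 further genes of these pathways, 80 could be tested, and few were called. In HFpEF+Veh against non_failing, 2 were higher and 1 lower (3.15% of all genes called). The higher genes were Cx3cl1, the membrane-bound chemokine fractalkine (3.47 ± 0.687 to 5.03 ± 1.06 TPM, log2 fold change 0.44, edgeR adjusted p = 0.0281), and Ccl12, another CCR2 ligand (3.49 ± 1.08 to 7.28 ± 2.02 TPM, log2 fold change 0.98, edgeR adjusted p = 0.0479). The lower one was Nfkbib, an inhibitor of NF-kappa-B (log2 fold change -0.33, edgeR adjusted p = 0.0158). Without V2523, Cx3cl1 was no longer called and the other two were. In HFpEF+TYA-018 against non_failing (7.39% of all genes called), Ccl8 (log2 fold change 1.80) and Ccl12 (1.20) were higher and Nfkbib (-0.25) lower, with edgeR adjusted p of 0.00163, 0.00400 and 0.0379. In HFpEF+SGLT2i against non_failing (6.45%), Ccr2, the CCL2 receptor (0.83), and Ccl8, a monocyte chemokine (1.24), were higher, and Pycard, the inflammasome adaptor (-0.47), was lower, with edgeR adjusted p of 0.0128, 0.0324 and 0.0308. Without V2571, Ccr2 alone of these was called. Pycard and Nlrp3 are partners in the inflammasome and their values had opposite signs in this comparison. Against HFpEF+Veh neither treatment gave a call among the 80, with 9 (TYA-018, beside 17.5% of all genes) and 6 (SGLT2i, beside 10%) at an edgeR unadjusted p under 0.05 and 0 called by DESeq2 for either treatment. The smallest p under TYA-018 were those of Itga4, the alpha-4 chain that binds VCAM-1 (-0.38, edgeR adjusted p = 0.128), and Podxl (-0.28, adjusted p = 0.165). Under SGLT2i, Ccl12 was among the smallest (-0.73, edgeR adjusted p = 0.237). Between the treatments none of the 80 was called by edgeR, 7 had an unadjusted p under 0.05 (13.2% of all genes did), and DESeq2 called 0 of the 62 to which it gave an adjusted p. The smallest p were those of Ccl12 (TYA-018 over SGLT2i 0.95, adjusted p = 0.0984) and Itga4 (-0.40, adjusted p = 0.156). The receptor, kinase and adaptor genes of the TNF and IL-6 pathways gave no call in any of the 6 comparisons.

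Markers of the cells that could carry these transcripts are given beside them. The 10 endothelial markers, led by Egfl7, summed to 373 to 684 TPM in non_failing, 482 to 681 in HFpEF+Veh, 363 to 569 in HFpEF+TYA-018 and 386 to 910 in HFpEF+SGLT2i, with the top value in V2571 and none of the 10 genes at 0. No endothelial marker was called by edgeR in any of the 6 comparisons, where 0, 2, 0, 3, 0 and 0 had an unadjusted p under 0.05, nor by DESeq2. The 8 monocyte and neutrophil markers, led by S100a9, summed to 2.76 to 37.6 TPM in non_failing, 4.44 to 44.1 in HFpEF+Veh, 5.0 to 42.6 in HFpEF+TYA-018 and 13.2 to 245 in HFpEF+SGLT2i. Retnlg was at 0 in at least 1 library of HFpEF+Veh and of HFpEF+TYA-018. They are given beside Il1b and Nlrp3. In HFpEF+SGLT2i against HFpEF+Veh, 7 of the 8 had an edgeR unadjusted p under 0.05 (10% of all genes did), 6 with positive log2 fold changes and Plac8 with -1.37. The median over the 8 was 1.09, and 0.67 without V2571, edgeR called none and DESeq2 called 1 (Retnlg, higher). In HFpEF+SGLT2i against non_failing edgeR called Ccr2 alone (higher), with a median of 1.21 over the 8, which was 0.74 without V2571. DESeq2 called 3 there (Ccr2, Csf3r and S100a8, all higher). In HFpEF+TYA-018 against HFpEF+SGLT2i all 8 had negative values, with a median of -1.02. Of these, 6 had an edgeR unadjusted p under 0.05 (13.2% of all genes did) and edgeR called none. In HFpEF+Veh against non_failing edgeR called Plac8 alone (higher) and, without V2523, none, with 0 at an unadjusted p under 0.05. Plac8 stood at 21.5 TPM in V2523 and at most 2.13 TPM in the other vehicle libraries. The part of monocytes and neutrophils in the Nlrp3 call was not tested. Of 8 cardiomyocyte markers, edgeR called 3 (Tnnt2, Myl2 and Tnni3) lower in HFpEF+Veh and in HFpEF+SGLT2i than in non_failing. Of all genes, 3.15% and 6.45% were called in these comparisons. All 8 markers had negative values in HFpEF+Veh, while 6 were negative and 2 positive in HFpEF+SGLT2i. In HFpEF+Veh against non_failing edgeR also called 2 of the 8 mural markers lower, Abcc9 and Rgs5 (3.15% of all genes were called). Of these 8 markers, 4 had positive and 4 negative log2 fold changes there, with a median of 0.01. All 5 erythrocyte markers (median log2 fold change 1.26) and all 9 macrophage markers tested (median 0.25) were positive there, none of them called. In HFpEF+SGLT2i against HFpEF+Veh all 5 erythrocyte markers were negative (median -0.88) and uncalled. The part of these cells in the Vcam1, Icam1 and Icam2 values was not tested. The hepatocyte list, led by Alb, was called lower by edgeR under both treatments than under vehicle in all 9 genes tested, and without V2523 in 2 genes under TYA-018 and 0 under SGLT2i, where 5 had an unadjusted p under 0.05 (DESeq2 with all libraries called 8 under either treatment). Against non_failing edgeR called 8 of the 9 lower under TYA-018 (median log2 fold change -5.84) and 7 under SGLT2i (median -4.90), and the part of liver transcripts in the Nlrp3 and Tnf values was not tested. Its sum was 1186 TPM in V2523 and 20.4 to 273 TPM in non_failing.

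Variation of the members within groups was set beside that of the cell type markers. Each gene's log2 CPM and each list's mean log2 CPM were centred on their group means, and the 38 centred values were compared by a permutation test within groups, two-sided, for 99 pairs of a gene and a list with Benjamini-Hochberg adjustment. In 17 pairs both Pearson's r and Spearman's rho had an adjusted permutation p under 0.05, and these pairs belonged to 5 genes, Icam1, Icam2, Ccl2, Il1b and Nlrp3. All 5 passed with the monocyte and neutrophil list and all 5 with the macrophage list, the latter at r = 0.60, 0.52, 0.48, 0.48 and 0.48 in that order. Il1b followed the monocyte and neutrophil list most closely (r = 0.89, rho = 0.85, adjusted permutation p = 0.00099 for both, r = 0.86 without V2571 and V2507). Nlrp3 (r = 0.62, rho = 0.56, adjusted permutation p = 0.00267 and 0.00825) and Ccl2 (r = 0.62, rho = 0.63, adjusted permutation p = 0.00267 and 0.00297) followed the same list, with r = 0.51 and 0.66 without those 2 libraries. Icam2 had its highest r with the endothelial list (r = 0.59, rho = 0.60, adjusted permutation p = 0.00267 and 0.00412, r = 0.57 without V2571 and V2561). It also passed with the monocyte and neutrophil (r = 0.45), venous and endocardial endothelial (r = 0.45) and T and B lymphocyte (r = 0.45) lists. These became r = 0.31 without V2571 and V2507, 0.35 without V2571 and V2543, and 0.49 without V2551 and V2528. Icam1 passed with 4 lists besides the cardiomyocyte list: macrophage (above), venous and endocardial endothelial (r = 0.63, and 0.40 without V2571 and V2543), endothelial, and monocyte and neutrophil. With the endothelial list it gave r = 0.62 and rho = 0.56 (adjusted permutation p = 0.00267 and 0.00825, r = 0.55 without V2571 and V2561), and with the monocyte and neutrophil list r = 0.66 and rho = 0.64 (adjusted permutation p = 0.00148 for both, r = 0.55 without V2571 and V2507). Icam1 and Icam2 ran against the cardiomyocyte list, at r = -0.61 and -0.62 (rho = -0.52 and -0.60, adjusted permutation p of r = 0.00267 for both and of rho = 0.0145 and 0.00412). Without V2571 and V2555 these were r = -0.50 and -0.53, and both scales are relative to the same library total. Vcam1 had its highest value with the fibroblast list (r = 0.43, rho adjusted permutation p = 0.0627), which did not pass on both measures. Sele, Selp and Tnf passed with no list. The highest r of Selp was that with the platelet list, at r = 0.41 and rho = 0.41. The adjusted permutation p there were 0.055 and 0.0627, and r was 0.41 without V2565 and V2549. Of the fibroblast markers, edgeR called Lum and Pdgfra higher in HFpEF+Veh against non_failing, and their part in the Vcam1 values was not tested. Beside the Nlrp3 and Tnf calls, in HFpEF+SGLT2i against non_failing, edgeR called Pdgfra higher (log2 fold change 0.35) and Tcf21 lower (-0.43), and their part in those calls was not tested either.

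**Figure D4:**
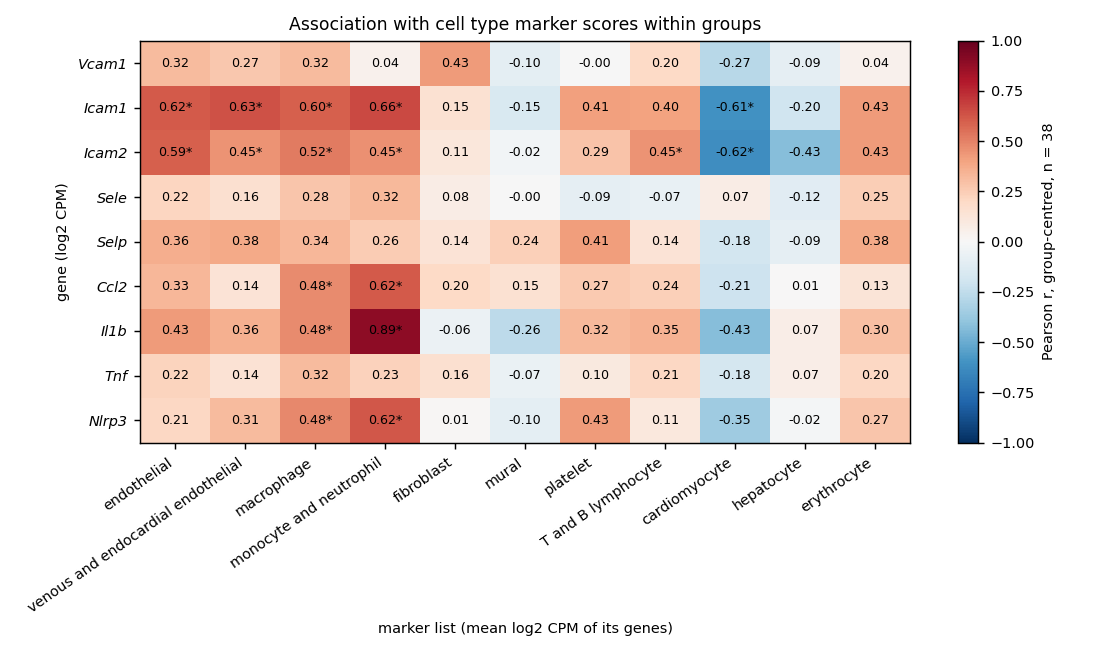
Pearson's r between each tested gene (rows, log2 CPM) and each cell type marker list (columns, mean log2 CPM), both centred on group means, over 38 libraries. Asterisks mark the 17 pairs in which r and Spearman's rho both had an adjusted permutation p under 0.05; the darkest cell is Il1b with the monocyte and neutrophil list at 0.89.

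The genes whose within-group pattern was most like each member's were listed by the same centred log2 CPM over 38 libraries, among 11122 genes, as a description with no test. For Il1b they were the neutrophil genes S100a9 (r = 0.88), S100a8 (0.88) and Csf3r (0.86). For Ccl2 they were Ccl7 (0.90), which lies in the same chemokine cluster, Cd300ld (0.75) and Plekho2 (0.73). For Icam2 they were Rbp7 (0.92), Ecscr (0.90) and Fabp5 (0.90). For Icam1 they were Sema3f (0.84), Il1r1, the IL-1 receptor (0.83), and Rhog (0.82). For Vcam1 they included Sh3bgrl (0.67) and Col8a1 (0.67). For Nlrp3 they were Fcer1g (0.68), Mgl2 (0.67) and Glipr2 (0.66), the first 2 being genes of myeloid cells. For Tnf they were the immediate-early genes Fos (0.63), Egr1 (0.59) and Junb (0.59). Sele was listed with Fkbp1a (0.65), Tuba1b (0.64) and 1700025G04Rik (0.63), and Selp was listed with Cald1 (0.66), Itgb4 (0.64) and Arrb1 (0.59). The genes of a library share its depth and composition, which may add to such values, and how far was not tested.

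**Figure D5:**
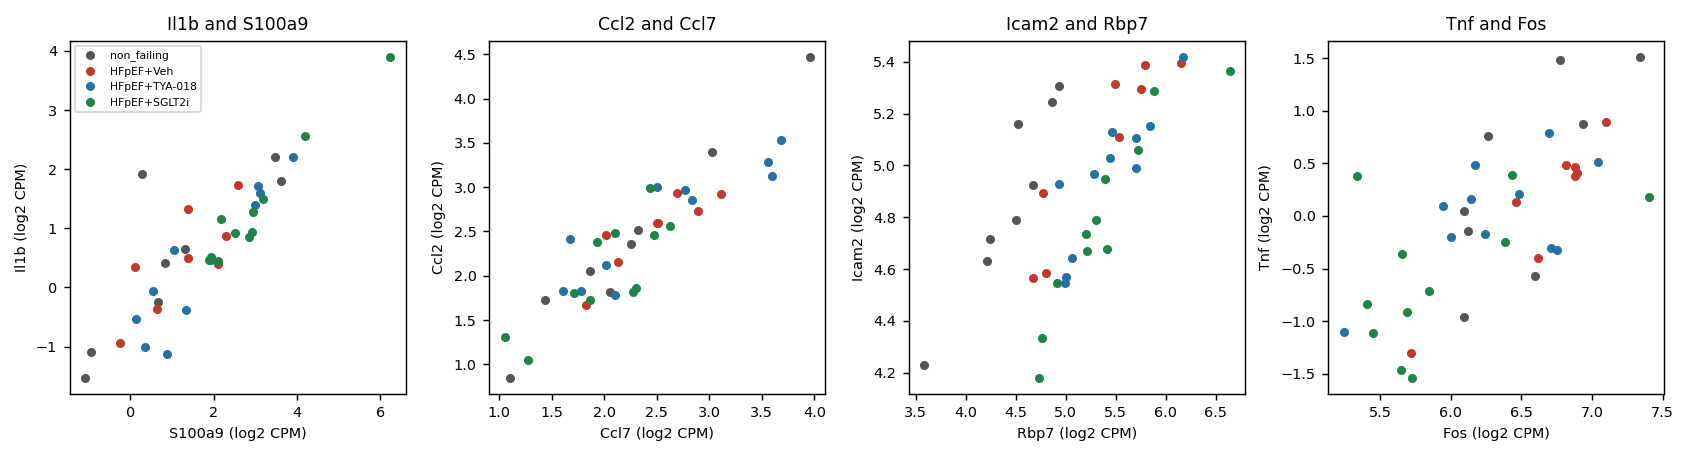
Log2 CPM of 4 members against the gene most like each, 1 point per library coloured by group, uncentred. Il1b with S100a9, Ccl2 with Ccl7 and Icam2 with Rbp7 rise together within groups (centred r = 0.88, 0.90 and 0.92), with the non_failing points shifted towards lower Rbp7, and Tnf with Fos is looser (0.63).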

How the data were processed

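RNA was measured in 38 left ventricle homogenates, 1 library per mouse. Per the labels and the study's methods, libraries were stranded and poly(A)-selected. The authors trimmed the reads and quantified them with Salmon 1.6.0. The labels name the build hg38, whereas the methods name a mouse GENCODE transcriptome on GRCm38, and the gene symbols of the tables are those of mouse. The labels and the methods also differ in read length and pairing, in the mice's sex and in the treatment course (the series title gives 3 months). The deposited expected count table, the deposited TPM table and the deposited effective lengths (in bases) were used, and all their columns matched a sample title. TPM, the authors' transcripts per 1000000, are corrected for length.

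The expected counts, rounded to whole numbers, were filtered with filterByExpr (13765 of 29564 kept) and the genes kept were fitted with edgeR 4.0.16 in R 4.3.3, by the quasi-likelihood F test, two-sided, with TMM factors and the 38 libraries of the 4 groups in 1 model. Benjamini-Hochberg adjustment covered every tested gene, and called means that the adjusted p lay under 0.05. Changes of scale that moved the median of all genes are given with the alternatives, which were DESeq2 1.42.0 and limma 3.58.1 on log2(TPM + 1), other scaling, no filter, a length offset, 2 groups alone and each library left out. CPM are counts per 1000000 of a library's total, and centred log2 CPM used a prior count of 2. Depth was 21451633 to 59280414 counts, so 3 counts correspond to 0.0506 to 0.140 CPM. No 2 libraries of a group agreed within sampling noise (166 pairs, lowest chi-square per degree of freedom 18.0). The labels name no litter or batch. The fit was tested on simulated counts with known changes. The study's methods analysed log2(TPM + 1), run here as an alternative because counts carry the depth behind each gene.

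The members and the gene lists were chosen with earlier results of these data known. Named were all 10 members, the called genes of the pathway lists (in a comparison with none, the 2 with the smallest p), the called and most abundant marker genes, Alb, and the 3 genes most like each member; some genes that these rules name are not reported here. Gene coordinates are from GENCODE M21 on GRCm38. Genes on the opposite strand overlap Vcam1, Icam1, Selp, Il1b and Ccl2, and whether quantification used the strand is not given in the sources used here, so reads from either strand cannot be told apart. The markers Adgre1 and Tf were not analysed here.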

Additional observations from a re-analysis of the deposited data

Results flagged for a closer look

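Among the 20 sets of values tested for a lone extreme library (10 genes in each of the 2 groups of 8 libraries), 1 stood out. Il6 in non_failing was 0.389 TPM in V2510 and 0 in the other 7 libraries. With 7 values at 0 the gap between the highest value and the rest equals the whole range whatever that value is, so the 0 values alone met the criterion. For normally distributed values chance would give about 1 in 20 such sets, a rate that does not apply to a set with 7 values at 0. The 0.389 TPM rested on 7 counts, and V2510 was also the highest non_failing library for Vcam1, Icam1 and Tnf.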

How the results depend on the processing

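The count of members called was the same as reported under every alternative tried in 4 of the 6 comparisons, 0 in each. In HFpEF+Veh against non_failing it ranged from 0 to 1 when single libraries were left out (Vcam1, without V2510). In HFpEF+SGLT2i against non_failing it was 2 with other scaling, no filter, the length offset, without V2523 and in DESeq2, 1 in limma on log2(TPM + 1) (Nlrp3) and 0 with those 2 groups fitted alone. With single libraries left out it ranged from 0 to 2, the log2 fold change of Nlrp3 from 1.07 to 1.49 and that of Tnf from -1.24 to -0.90.

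Values that changed sign were all uncalled. With single libraries left out, 13 of 54 changed sign in at least 1 fit, none of them over 0.26 in size as reported, and none was called after the change. Without V2507, Ccl2 against non_failing was 0.27 in HFpEF+Veh and 0.46 in HFpEF+TYA-018. In limma they were Ccl2 in HFpEF+Veh against non_failing (0.15), Ccl2 (-0.043), Il1b (-0.082) and Selp (-0.036) in HFpEF+TYA-018 against HFpEF+Veh, Sele in HFpEF+TYA-018 against HFpEF+SGLT2i (-0.00099), Ccl2 in HFpEF+TYA-018 against non_failing (0.11) and Vcam1 in HFpEF+SGLT2i against non_failing (0.022). With the length offset, Selp in HFpEF+TYA-018 against HFpEF+Veh was -0.0046. With library size alone, Icam1 in HFpEF+TYA-018 against HFpEF+SGLT2i was -0.0046, and the median of all genes shifted by -0.14 in HFpEF+TYA-018 against HFpEF+Veh. Selp in HFpEF+SGLT2i against non_failing, 0.0013 as reported, was -0.0052 with relative log expression factors, -0.031 with the length offset, -0.0034 with 2 groups alone, -0.00078 without V2523 and -0.0043 in DESeq2. The cause of these changes was not tested. No paired analysis was possible because mouse numbers differ in every group. Depth limits the scarce genes: 3 counts were worth up to 0.208 TPM for Il6.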
